A study of Sus scrofa with 16 samples.

Results

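The genes examined here encode the proteins of the cytosolic ribosome. They were found by symbol: protein-coding rows named RPL or RPS with a number and at most 1 closing letter A, X or L, plus RPSA, RPLP0, RPLP1 and RPLP2. The rule took 80 of the 28232 gene rows, and because RPL18 stood in 2 of them the row with more counts was kept, leaving 79 genes, 32 named for the small subunit and 47 for the large subunit. The libraries came from pig (Sus scrofa) embryonic stem cells (pESCs) carried towards midbrain dopaminergic neurons and sequenced in bulk after poly-A selection. The IVF cells were line IVF_1_ pESC_FIW, from an in vitro fertilised embryo, and the PA cells were line PA_3_ pESC_FIW, from a parthenogenetically activated egg. Each was sampled at day 0 (undifferentiated pESCs), day 16, day 28 and day 45, with 2 libraries per line and day, 16 in all. All differentiating cells received SB431542, Noggin, SHH and CHIR99021, then FGF8, then BDNF and ascorbic acid, and from the replating at day 16 also GDNF, db-cAMP and DAPT. Because a single line stood for each embryo origin, effects of origin and of line cannot be told apart. Whether both libraries of a group came from separate cultures is not in the labels, so p-values measure the spread between libraries, which may be technical.

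A ribosome is built from 2 subunits, each holding ribosomal RNA and 1 copy of nearly every ribosomal protein, so cells make these proteins in matched amounts. Their mRNAs are among the most abundant in dividing cells. In mammals most of them begin with a C followed by a run of pyrimidines (C or T in DNA letters). This is the 5′ terminal oligopyrimidine tract, through which mTOR signalling sets how strongly these mRNAs are translated. Transcription factors such as MYC act on their transcription and on ribosome assembly. Neurons that have stopped dividing still need ribosomes, in the cell body and along axons and dendrites.

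The start of each gene in the Sscrofa11.1 RefSeq annotation was read for this tract, since it is the feature that ties the family together. The 30-base windows below run 5′ to 3′ on the gene's strand, from 10 bases before the annotated start to 20 bases from it. Capitals mark the longest run of C or T near the start. The first 5 hold a C at the annotated start followed by at least 4 further pyrimidines, and the last 4 do not; they are shown because the values of these genes are described in what follows.
RPL10, chrX:124927239-124927268, plus strand: gtgggagcgCCTCTTTTCCTTCggcgcggt
RPL15, chr13:10716363-10716392, plus strand: aagcgTCTTCCTTTCCgtctgtcggcagcc
RPLP0, chr14:40223924-40223953, minus strand: tacagCCCTCCTCTCgccaggcgtcctcgt
RPLP2, chr2:507881-507910, plus strand: gcgccggcgTCTTCCTTTCTgtccctgacg
RPS20, chr4:75762199-75762228, plus strand: tcacgCCTTCCTCTTTgaagaagacgcagc
RPL3, chr5:8922687-8922716, plus strand: tctgggaTTTatatatcgcacgcctagacc
RPSA, chr13:24072541-24072570, plus strand: ctgCCCagaccggggtccacacggcgttgt
RPS2, chr3:39996169-39996198, plus strand: gggaagcggaaggagCCagaggcgtttccg
RPS27L, chr1:108881320-108881349, plus strand: cctaCCCgccatacaccagttgagcctggc

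A C followed by at least 4 pyrimidines stood exactly at the annotated start of 18 of the 79 genes (22.8%), against 620 of 19549 protein-coding genes on chromosomes (3.17%). A run of at least 8 pyrimidines near the start was present in 23 of the 79 (29.1%) and in 1988 of all (10.2%). The match depends on where the annotation puts the first base, and a window without it says only that these letters are not there.

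Sequencing depth was 39247693 to 52165867 counts assigned to genes per library. The 4 stem cell markers POU5F1, NANOG, SOX2 and LIN28A summed to 1440 to 1643 CPM at day 0 (CPM are counts divided by library size, after scaling by edgeR's trimmed mean of M values) and to at most 168 CPM later. Markers of dividing cells (MKI67, TOP2A, CDK1, CCNB1) summed to 1684 to 2124 CPM at days 0 and 16 and to 90.9 to 335 CPM at days 28 and 45. Summed neuron markers (MAP2, STMN2, SYN1 and RBFOX3) were at 1666 to 1725, 1490 to 2016 and 885 to 1209 CPM at days 16, 28 and 45 in IVF cells. In PA cells they were at 926 to 931, 3425 to 3455 and 1227 to 1399.6 CPM. Dopaminergic markers summed to 11.7 to 15.2 CPM at day 0 and to 128 to 264 CPM at day 45. TH, DDC, SLC18A2, NR4A2 and EN1 were higher at day 45, though EN1 reached only 2.04 CPM in IVF and 0.54 CPM in PA cells. SLC6A3 went the other way, from 2.35 to 0.15 CPM in IVF and from 4.51 to 0.33 CPM in PA cells. Fibroblast markers (COL1A1, COL1A2, DCN, LUM and PDGFRA) summed to 66.2 to 94.0 CPM at days 0 and 16. They summed to 376 to 1243 CPM later, mostly from COL1A2. Astrocyte markers were at 5.03 to 40.4 CPM and microglia markers at 0.71 CPM or lower. Mitochondrial genes took 3.58% to 8.28% of the counts. Of the 79 genes, 78 passed edgeR's filter on low counts with 18528 genes in all. RPL10L had 3 counts in all, in 1 PA day 45 library, and was not tested.

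At day 0 the 79 genes took 6.39% and 6.32% of the counts in the 2 IVF libraries, and 7.46% and 7.92% in the 2 PA libraries. At day 16 they took 5.51% and 5.67% in IVF and 7.00% and 7.52% in PA cells. At day 28 the shares were 3.03% and 2.77% in IVF and 2.90% and 2.86% in PA cells, so the lines overlapped, and both stood far below every library of the earlier days. At day 45 the shares were 4.31% and 3.61% in IVF cells, above both of that line's day 28 libraries, and 2.95% and 2.46% in PA cells, on either side of that line's day 28 values. As mean ± SD (n = 2) the IVF share went from 6.35% ± 0.049 to 5.59% ± 0.11, 2.90% ± 0.19 and 3.96% ± 0.50, and the PA share from 7.69% ± 0.32 to 7.26% ± 0.37, 2.88% ± 0.029 and 2.70% ± 0.34. In the deposited TPM, a transcript level that divides each count by gene length and is scaled to the same total in every library, the same genes made up 17.8%, 17.2%, 9.83% and 12.0% of the total in IVF cells and 20.2%, 20.4%, 10.0% and 8.45% in PA cells. The fall from day 0 to day 16 in PA cells is therefore a feature of the counts and not of the TPM. In IVF cells the fall over this step was also smaller, relative to its start, in TPM (17.8% to 17.2%) than in counts (6.35% to 5.59%). In a bulk sample, fewer cells that hold much of these mRNAs and less of them per cell cannot be told apart.

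**Figure D1:**
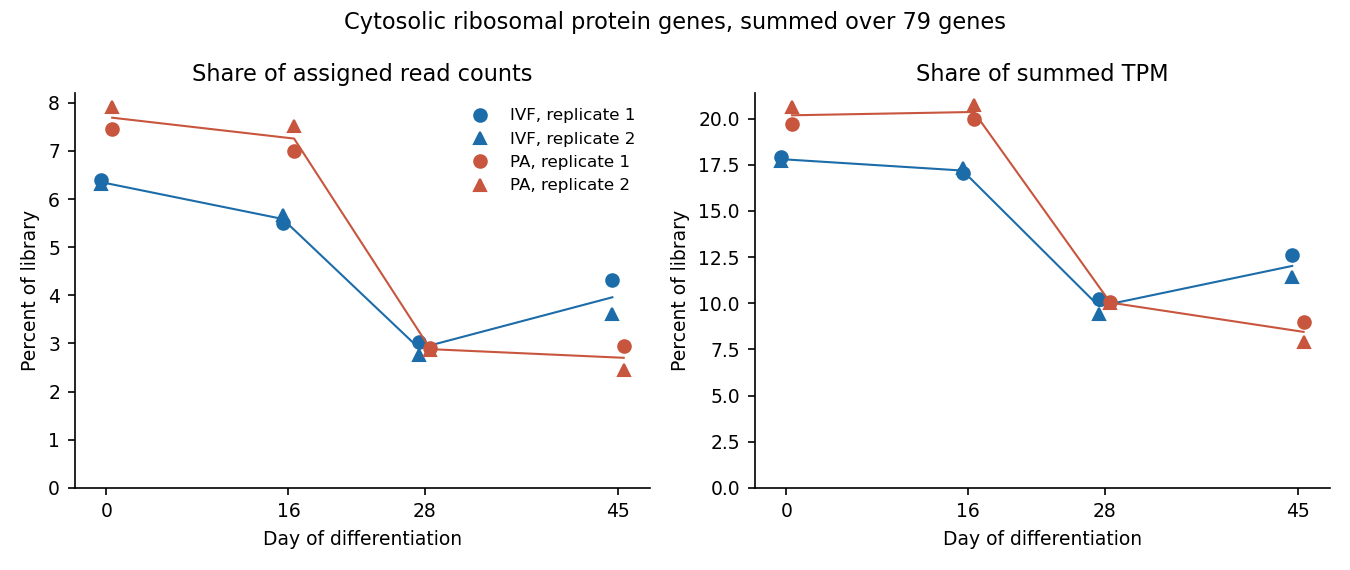
Share of each library's assigned counts (left) and of its summed TPM (right) taken by the 79 ribosomal protein genes, in percent, against the day of differentiation; circles and triangles are the 2 replicates, lines join the group means, blue is IVF and red is PA. PA libraries lie above IVF libraries at days 0 and 16, the lines meet at day 28 (2.90% and 2.88% of counts), and IVF libraries lie above PA libraries at day 45.

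Between single genes the levels per length spread widely. Averaged over the 16 libraries, RPS20 (3788 TPM), RPL17 (3709 TPM) and RPLP1 (3458 TPM) were the highest. RPS27L (117 TPM), RPL3L (1.22 TPM) and RPL10L (0.00699 TPM) were the lowest, and these 3 are copies of RPS27, RPL3 and RPL10. The balance of the subunits hardly moved: summed small subunit TPM over summed large subunit TPM was 0.758 to 0.774 as group means, with all libraries between 0.752 and 0.791.

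The first comparison asks what happened in the 16 days from pESCs to neural precursors. In IVF cells 35 of the 78 tested genes fell and 0 rose at an adjusted p below 0.05 (edgeR quasi-likelihood test), beside 30.1% of all tested genes that fell and 31.2% that rose. The median change of the 78 was -0.27 on the log2 scale, against 0.00 for all genes. In PA cells 23 fell and 2 rose, beside 29.3% and 30.3% of all genes, and the median was -0.17. Read against these shares, the IVF count was above its background for falls and the PA count was about equal to it. In all, 20 genes fell in both lines. The IVF count was 16 and 20 without IVF day 16 replicate 1 or 2 and 21 without either IVF day 0 library. The PA count was 10 without PA day 0 replicate 2, and 12 and 13 without PA day 16 replicate 1 or 2.

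RPSA, RPL12 and RPS26 were among the 4 genes that fell most in both lines. RPSA encodes the small subunit protein that is also known as the laminin receptor. Its level was 1703 and 1723 CPM at day 0 and 867 and 861 CPM at day 16 in IVF cells, and 2096 and 2328 CPM followed by 1293 and 1295 CPM in PA cells. Every day 16 library was below every day 0 library, and the log2 changes were -0.99 ± 0.11 (SE, adjusted p = 2.6e-06) and -0.77 ± 0.11 (adjusted p = 2.8e-05). RPS2, a protein of the small subunit near the mRNA entry, went from 2368 and 2266 CPM to 1413 and 1476 CPM in IVF cells (log2 change -0.68 ± 0.12, adjusted p = 0.00017). In PA cells it went from 2672 and 2913 CPM to 1634 and 1655 CPM (-0.76 ± 0.12, adjusted p = 6.6e-05). RPL12, a large subunit protein at the base of the stalk, fell by 0.77 and 0.71 on the log2 scale, and RPS26, which contacts the mRNA at the exit site, fell by 0.74 and 0.59. At the other end RPL35A rose in PA cells by 0.39 ± 0.12 (adjusted p = 0.014, a call lost without PA day 0 replicate 1 or PA day 16 replicate 2), beside 0.04 ± 0.12 in IVF cells (adjusted p = 0.80), and the difference between the lines did not pass its test (0.35 ± 0.18, adjusted p = 0.24).

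A second fit scaled each library to the summed counts of the 79 genes and so asked which genes changed their share among the ribosomal protein mRNAs. Its p-values were adjusted over all tested genes and not within the family, so its calls are not controlled for the family alone. From day 0 to day 16 it called 10 genes up and 7 down in IVF cells, beside 37.7% and 17.6% of all genes on this scale, and 13 up and 13 down in PA cells, beside 33.2% and 21.1%. RPSA lost share in both lines (-0.68 and -0.59 on the log2 scale, adjusted p = 2.6e-05 and 0.00010). RPS2 (-0.38 and -0.58) and RPL12 (-0.47 and -0.53) did too. RPS27L gained share in both (0.65 and 0.69, adjusted p = 0.0036 and 0.0026), as did RPL35A (0.34 and 0.57, adjusted p = 0.0079 and 0.00021).

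From day 16 to day 28, the stage at which the cells had been replated and given DAPT, nearly the whole family fell. In IVF cells 76 of 78 genes fell and 0 rose, beside 24.1% and 22.9% of all genes. The median log2 change was -1.02, a 2.03-fold decrease, and 46 genes fell at least 2-fold, beside 11.6% of all genes. In PA cells 77 of 78 fell and 0 rose, beside 30.9% and 29.5% of all genes. The median was -1.44, a 2.72-fold decrease, and 75 fell at least 2-fold, beside 16.2% of all genes. All 76 genes called in IVF cells were also called in PA cells. RPL3L was not called in either line, and RPL15 was not called in IVF cells. With 1 library left out at a time, 75 to 77 genes were called in IVF cells and 76 or 77 in PA cells. Over the same step the summed markers of dividing cells went from 1684 to 1695 CPM down to 192 to 195 CPM in IVF cells. In PA cells they went from 1971 to 2124 CPM down to 277 to 316 CPM. The summed fibroblast markers went from 68.6 to 75.4 CPM up to 538 to 655 CPM in IVF cells. In PA cells they went from 84.7 to 94.0 CPM up to 376 to 438 CPM. Most of this was COL1A2, which went from 33.1 to 408 CPM in IVF and from 76.4 to 383 CPM in PA cells (group means). Of the 5 fibroblast markers 3 rose and 0 fell in each line, beside 22.9% and 29.5% of all genes that rose. COL1A1 was not among those that rose in PA cells, at 11.6 and then 9.52 CPM. The summed neuron markers went from 1666 to 1725 CPM to 1490 to 2016 CPM in IVF cells. In PA cells they went from 926 to 931 CPM up to 3425 to 3455 CPM. The part of these readings in the fall was not tested.

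**Figure D2:**
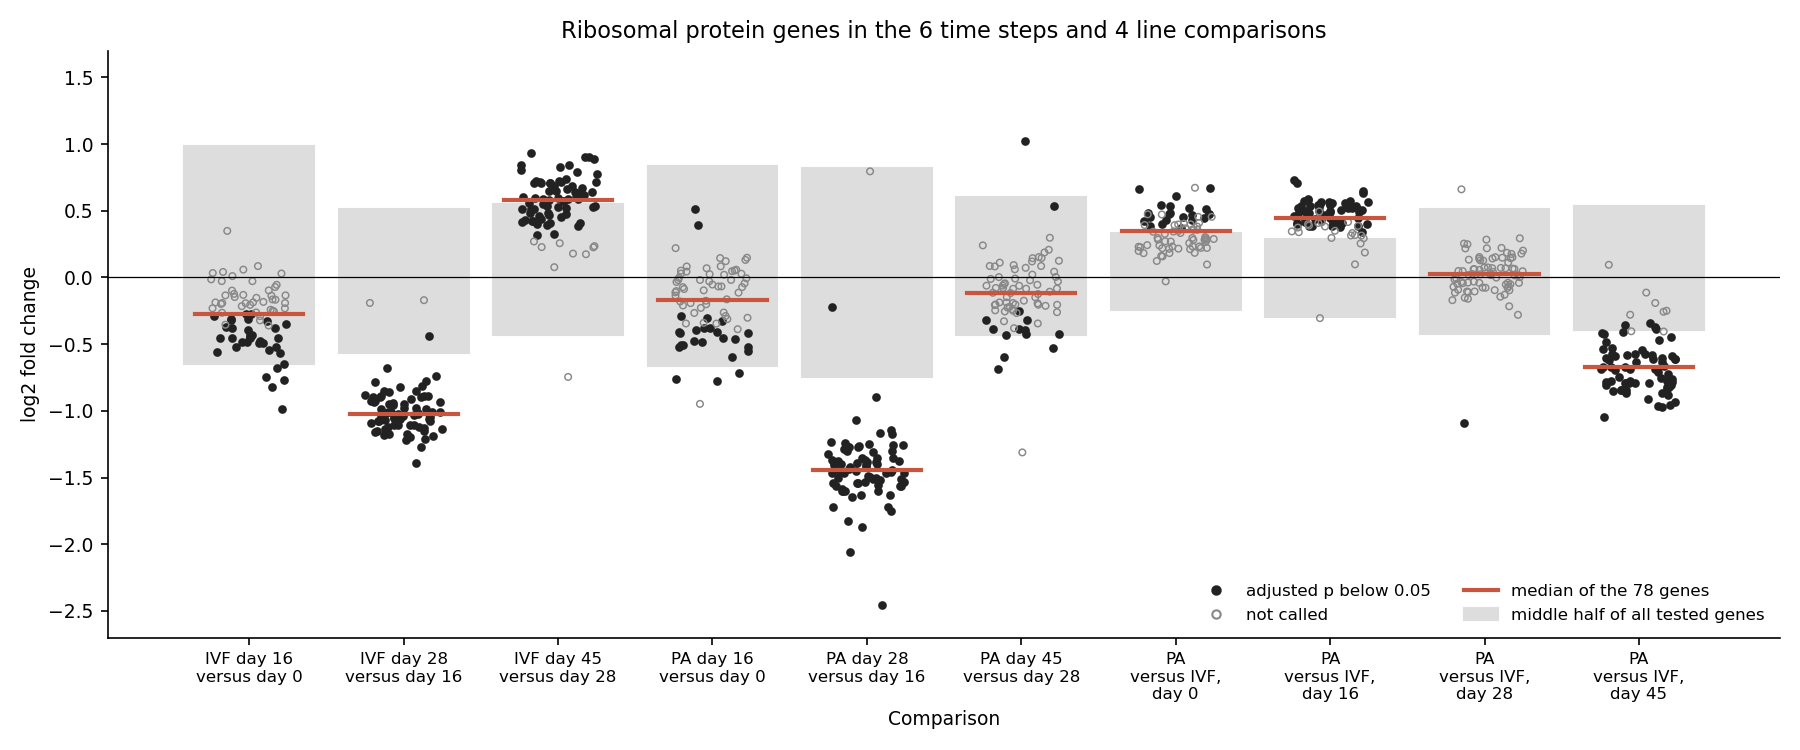
log2 fold change of the 78 tested ribosomal protein genes in the 6 time steps and the 4 comparisons of PA with IVF cells; filled points passed an adjusted p of 0.05, open points did not, the red bar is the median of the 78 genes and the grey box is the interquartile range of all tested genes. Most points lie below the box in both lines from day 16 to day 28 (medians -1.02 and -1.44) and below zero in the comparison of the lines at day 45 (median -0.67).

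RPL3, the large subunit protein that lies close to the peptidyl transferase centre, fell furthest in IVF cells. Its level was 1363 and 1318 CPM at day 16 and 536 and 486 CPM at day 28, a log2 change of -1.39 ± 0.11 (adjusted p = 2.0e-07). In PA cells it went from 1959 and 1970 CPM to 475 and 469.5 CPM, a log2 change of -2.06 ± 0.11 (adjusted p = 3.5e-09). The fall was larger in PA cells by -0.67 ± 0.15 (adjusted p = 0.0043). PA libraries were above IVF libraries at day 16 and below them at day 28. RPS18, a protein of the small subunit head, went from 667 and 635 CPM to 309.6 and 254 CPM in IVF cells and from 1055 and 1100.5 CPM to 290.1 and 299 CPM in PA cells, with log2 changes of -1.21 ± 0.15 and -1.87 ± 0.15. RPLP1, 1 of the acidic stalk proteins, fell by 1.27 and 1.54 on the log2 scale.

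RPL15 stood out for how little it moved. This large subunit protein is needed for pre-ribosomal RNA processing in human cells, and its gene carries a tract of 11 pyrimidines across the annotated start in the window printed above. It was read at 859.9 and 884 CPM at day 16 and 763 and 765 CPM at day 28 in IVF cells, and at 909.8 and 957 CPM and then 794 and 809 CPM in PA cells. The log2 changes were -0.19 ± 0.08 (adjusted p = 0.063) and -0.22 ± 0.08 (adjusted p = 0.028), and the PA call was lost in 14 of the 26 alternative settings, DESeq2 among them. Relative to the summed family RPL15 gained 0.81 (adjusted p = 2.6e-05) in IVF and 1.20 (adjusted p = 4.3e-07) in PA cells. In TPM its group means were 947 and 944 in IVF and 896 and 983 in PA cells at days 16 and 28. RPL10, an X-linked large subunit protein with a tract of 13 pyrimidines, moved less than the family median as well, though it was called in both lines: it fell by 0.44 ± 0.13 and 0.90 ± 0.13 on the log2 scale and gained 0.56 and 0.53 within the family (adjusted p = 0.00010 and 0.00014). No other annotated gene overlaps RPL15 or RPL10.

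In all, the family-scaled fit called 4 genes up (RPL15, RPL10, RPS14 and RPS27A) and 2 down (RPL3 and RPLP1) in IVF cells from day 16 to day 28, beside 64.3% of all genes up and 5.85% down on this scale, and 6 up and 8 down in PA cells, beside 72.4% and 5.40%. RPS14 overlaps NDST1 on the opposite strand, whose counts amount to 38.5% of those of RPS14. The strand setting of the counting is not given in the sources used here, so reads of such pairs may be exchanged. Among the 79 genes 14 overlap another annotated gene, and of the 64 tested genes that do not, 63 fell in IVF and 64 in PA cells over this step.

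**Figure D3:**
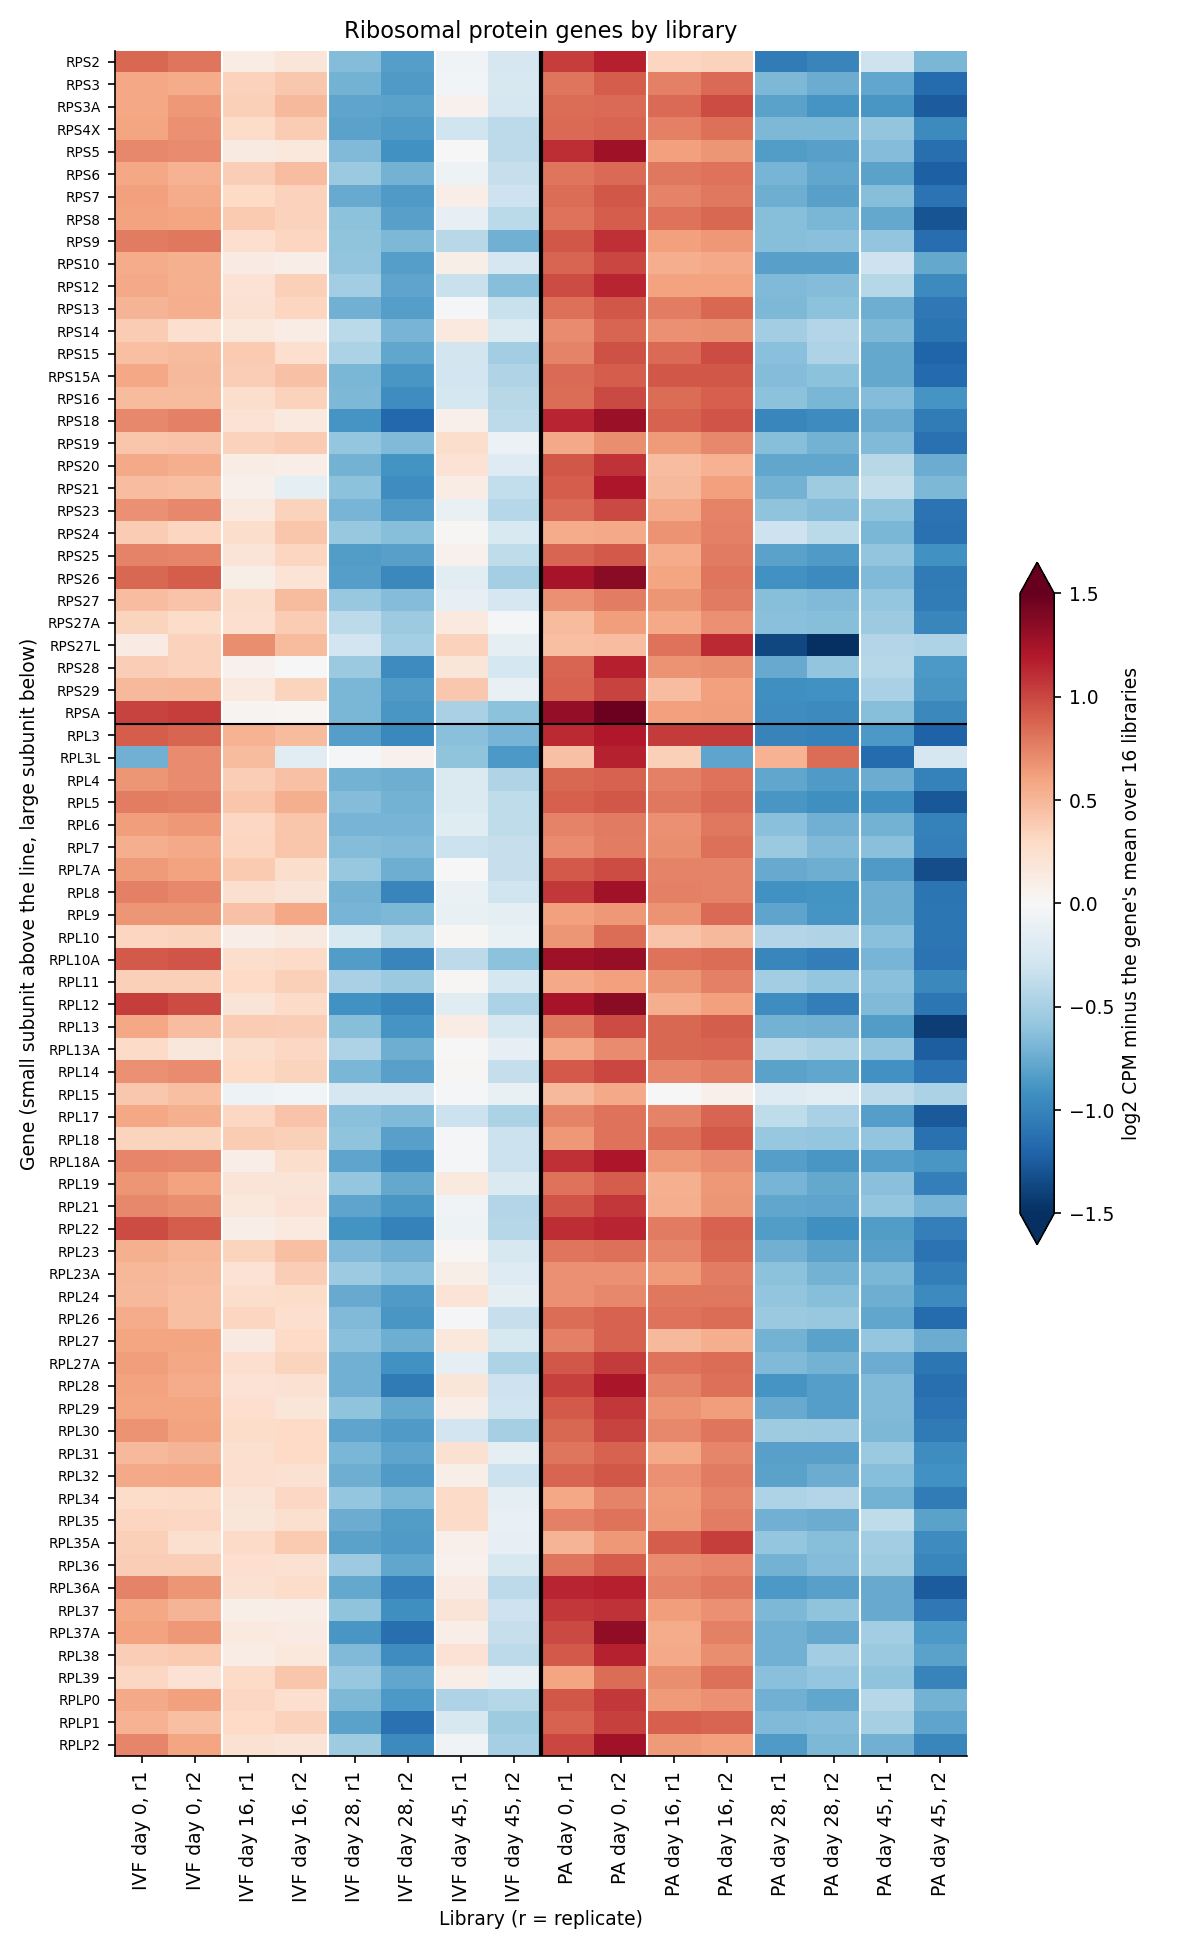
Level of 76 ribosomal protein genes in the 16 libraries, as log2 CPM minus the gene's own mean over the libraries; rows are genes, small subunit above the horizontal line and large subunit below it, columns are libraries, and red is above and blue below the gene's mean. Nearly every row turns from red to blue between day 16 and day 28 in both lines, RPL15 and RPL3L do so least, and the 2 libraries of PA day 45 differ in most rows.

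From day 28 to day 45 the lines went separate ways. In IVF cells 69 of 78 genes rose and 0 fell, beside 21.1% and 20.9% of all genes, with a median log2 change of 0.58. The 9 genes not called were RPL3, RPL3L, RPL10, RPL15, RPL17, RPS9, RPS12, RPS15 and RPSA. In PA cells 12 fell and 2 rose, beside 21.0% and 23.0% of all genes, so the share of members called was below the background, and the median was -0.12. The change differed between the lines for 63 genes, all of them lower in PA than in IVF cells (median difference -0.68), beside 15.2% of all genes lower and 15.8% higher. The IVF count was 34 without IVF day 28 replicate 2 and 39 without IVF day 45 replicate 1. The count of differences was 37 without IVF day 28 replicate 2. The PA counts turned on the 2 day 45 libraries: without replicate 1, 42 genes fell and 2 rose, and without replicate 2, 4 fell and 10 rose. Without either PA day 28 library 3 fell and 2 rose. Fitted on the compared libraries alone, the count of differences was 27.

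Other readings moved over the same days. The mitochondrial share of counts went from 3.71% ± 0.18 to 7.23% ± 1.49 in IVF and from 4.02% ± 0.16 to 7.00% ± 1.21 in PA cells (SD, n = 2). The summed astrocyte markers went from 5.93 to 6.79 CPM up to 27.0 to 40.4 CPM in IVF cells and from 6.01 to 6.14 CPM to 5.79 to 19.8 CPM in PA cells. The summed neuron markers, mostly MAP2 and STMN2, went down as group means, from 1753 to 1047 CPM in IVF and from 3440.1 to 1313 CPM in PA cells. In IVF cells 2 of the 4 genes tested fell and 1 rose, beside 20.9% and 21.1% of all genes. SYN1 went up there, from 14.7 to 23.5 CPM. In PA cells all 4 fell, beside 21.0% of all genes. The part of these readings in the changes of the ribosomal protein genes was not tested.

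The 2 libraries of a group lay furthest apart at day 45. The median absolute log2 ratio of the members between the 2 replicates was 0.31 in IVF and 0.38 in PA cells at day 45, and 0.033 to 0.15 in the other groups. In the 2 PA day 45 libraries the summed markers of dividing cells were 118 and 335 CPM at the low and high end, and the summed fibroblast markers 484 and 1243 CPM. The mitochondrial share of counts was 8.28% and 6.18% in IVF replicates 1 and 2 and 7.86% and 6.15% in PA replicates 1 and 2, higher in the same library as the share of the ribosomal protein genes in each line. The part of these in the spread was not tested.

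Among the genes that rose in IVF cells, RPS29, a zinc-binding small subunit protein, was 147 and 131 CPM at day 28 and 313 and 220.0 CPM at day 45, a log2 change of 0.94 ± 0.16 (adjusted p = 0.00031). RPL35, which sits at the exit of the peptide tunnel, went from 220.1 and 206 CPM to 452 and 343 CPM (0.90 ± 0.14, adjusted p = 0.00015). RPS18 went from 309.6 and 254 CPM to 603 and 437 CPM (0.89 ± 0.14, adjusted p = 0.00027). In PA cells these genes gave log2 changes of 0.24 ± 0.15, 0.15 ± 0.14 and 0.07 ± 0.14, none of which passed the test.

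Among the genes that fell in PA cells was RPL34, a large subunit protein. It was 244 and 246 CPM at day 28 and 205 and 162 CPM at day 45 (log2 change -0.42 ± 0.13, adjusted p = 0.021). In IVF cells it went from 224 and 209 CPM to 409 and 306 CPM (0.73 ± 0.13, adjusted p = 0.00073). The difference between the steps was -1.15 ± 0.19 (adjusted p = 0.00058). RPL13 (-1.09 ± 0.23), RPL24 (-1.07 ± 0.15) and RPS24 (-1.04 ± 0.18) also differed by more than 2-fold, beside 7.91% of all genes with such a difference in that direction. RPS2 did the opposite of most genes in PA cells and rose from 630.5 and 654 CPM to 1047 and 811 CPM (0.53 ± 0.12, adjusted p = 0.0021), with an equal rise in IVF cells from 827 and 732 CPM to 1259.8 and 1096 CPM (0.59 ± 0.12, adjusted p = 0.0011). Scaled to the summed family, 11 genes rose and 8 fell in PA cells over this step, beside 25.2% and 13.8% of all genes, with RPS27L (1.18) and RPS2 (0.66) the highest of those called and RPL17 (-0.47) among the lowest.

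**Figure D4:**
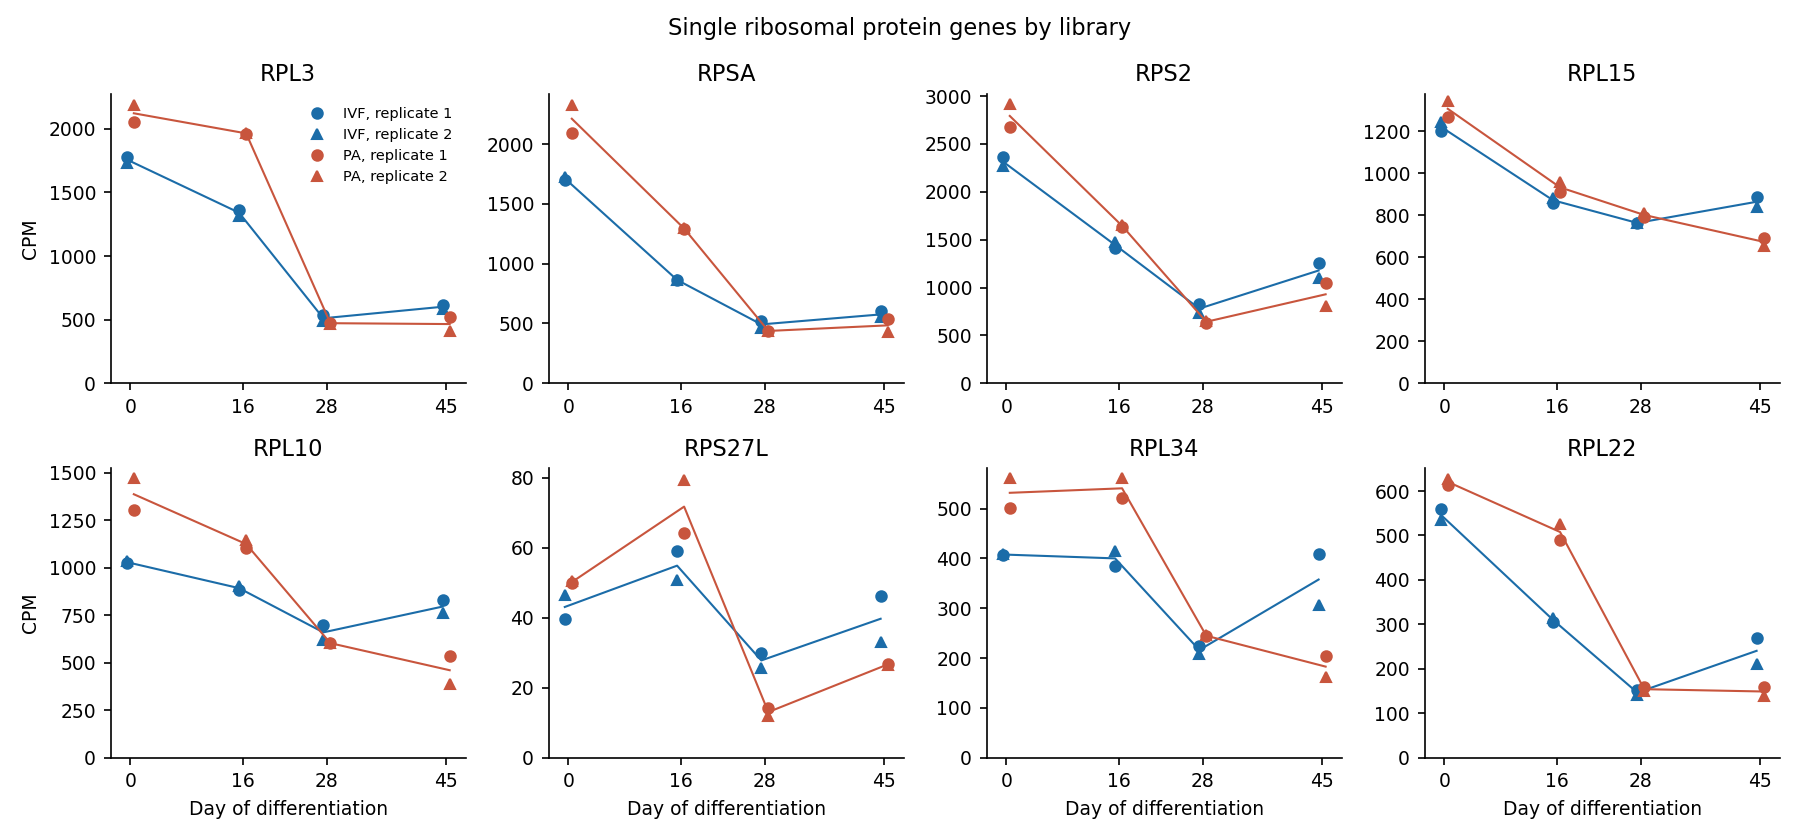
CPM of 8 ribosomal protein genes in every library against the day of differentiation; circles and triangles are replicates 1 and 2, lines join the group means, blue is IVF and red is PA. RPL3, RPSA and RPS2 lose most of their level by day 28, RPL15 stays between 656 and 957 CPM from day 16 on, and RPS27L is highest at day 16. RPL34 parts between the lines at day 45 and RPL22 at day 16, as most of the tested ribosomal protein genes do on those days.

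Measured from the start, the genes stood at day 45 at a median of 61.4% of their day 0 CPM in IVF cells and 30.2% in PA cells (77 genes, without the barely detected RPL3L and RPL10L). The range was 33.6% to 92.2% in IVF and 21.9% to 53.1% in PA cells. The summed loss was relatively smaller in TPM than in CPM. In TPM the family made up 17.8% of the total at day 0 and 12.0% at day 45 in IVF cells, and 20.2% and 8.45% in PA cells.

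Set side by side on the same day, PA cells held more of these mRNAs than IVF cells before neuronal replating and less at the end. At day 0, 22 of 78 genes were higher in PA cells and 0 lower, beside 8.95% of all genes higher and 7.69% lower, with a median of 0.35 on the log2 scale. At day 16, 56 were higher and 0 lower, beside 9.21% and 11.2%, with a median of 0.45. At day 28, 1 gene (RPS27L) was lower and 0 were higher, beside 20.2% and 19.8%, with a median of 0.02. At day 45, 70 were lower and 0 higher, beside 18.7% and 20.2%, with a median of -0.67, and RPL13 alone was at least 2-fold lower, beside 5.62% of all genes.

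These counts depended on the libraries in the fit, and leaving out 1 library moved them most at days 0 and 16. All groups shared 1 spread per gene. The median absolute log2 ratio between replicates was 0.033 and 0.12 at day 0 in IVF and PA cells, and 0.31 and 0.38 at day 45. A fit of the compared libraries alone gave more calls than the full fit at day 0 and fewer at day 45. At day 0 the count was 0 without either IVF day 0 library or without PA day 0 replicate 2, 12 without PA day 0 replicate 1, 13 without either PA day 28 library, 36 without IVF day 45 replicate 1 and 54 without either PA day 45 library. At day 16 it was 11 and 16 without IVF day 16 replicate 1 or 2, and 24 and 15 without PA day 16 replicate 1 or 2. At day 28 the calls turned to mostly higher in PA cells with RLE scaling, no filter or DESeq2 (2 higher and 1 lower each), in a fit of the compared libraries alone (9 higher and 3 lower) and without either PA day 45 library (4 higher and 3 lower). At day 45 the count was 52 to 77 with 1 library left out and 25 in a fit of the compared libraries alone, all lower in PA cells. Leaving out each of the 4 libraries compared did not turn the summed level at days 0, 16 or 45.

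At day 45 RPL13, a large subunit protein, was 386 and 303 CPM in IVF and 199 and 134 CPM in PA cells (log2 difference -1.04 ± 0.16, adjusted p = 0.00023). RPS19, whose human gene is mutated in Diamond-Blackfan anaemia, was 877 and 691 CPM in IVF and 463 and 337 CPM in PA cells (-0.97 ± 0.14, adjusted p = 0.00012). RPL34 was 409 and 306 CPM against 205 and 162 CPM (-0.97 ± 0.14, adjusted p = 0.00011). RPS3A was 944 and 755 CPM against 493 and 381 CPM (-0.96 ± 0.13, adjusted p = 6.6e-05). For these 4 genes no PA library reached an IVF library. Scaled to the summed family, 9 genes were higher and 6 lower in PA cells at day 45, beside 54.9% and 4.11% of all genes. The shares of RPLP0 (0.52), RPS12 (0.44), RPLP1 (0.39) and RPSA (0.38) were higher, and those of RPL13 (-0.42), RPS19 (-0.34), RPL34 (-0.32) and RPS3A (-0.32) lower. Among the genes not called in the comparison of levels were RPL3L, RPLP0, RPLP1, RPS9, RPS12, RPS21 and RPSA.

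The step from day 16 to day 28 also differed between the lines. The fall was larger in PA cells for 17 genes and smaller for 0, beside 13.6% and 15.0% of all genes, with a median difference of -0.42. After RPS27L (-1.47 ± 0.23, adjusted p = 0.00034) the largest differences were those of RPSA (-0.75 ± 0.15, adjusted p = 0.0023), RPL3 and RPS18 (-0.66 ± 0.20, adjusted p = 0.025). This count depended on the libraries in the fit. It was 53 without either PA day 45 library and 26 without IVF day 45 replicate 1. It was 10 without either IVF day 0 library, 9 without either PA day 0 library, 5 and 8 without IVF day 16 replicate 1 or 2, 9 and 6 without PA day 16 replicate 1 or 2, 4 and 7 without IVF day 28 replicate 1 or 2, and 6 and 4 without PA day 28 replicate 1 or 2. From day 0 to day 16 only RPL22 differed between the lines, beside 4.38% of all genes higher and 6.26% lower.

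From day 16 to day 28 the subunits and subgroups followed the family. In this step 32 of 32 small subunit genes fell in both lines (medians -0.99 and -1.45), as did 44 and 45 of 46 large subunit genes (medians -1.05 and -1.43). The 3 stalk proteins RPLP0, RPLP1 and RPLP2, which bind the elongation factors, fell in both lines at this step. At day 45 only RPLP2 was lower in PA than in IVF cells (-0.59 ± 0.16, adjusted p = 0.011), while RPLP0 (-0.11 ± 0.10) and RPLP1 (-0.26 ± 0.13) did not pass the test. RPLP0 was 997 and 1017 CPM in IVF and 1024 and 838 CPM in PA cells at day 45, so the lines overlapped, and within the family its share was higher in PA cells (0.52, adjusted p = 0.0011). The 4 X-linked genes RPS4X, RPL10, RPL36A and RPL39 gave medians of -1.08 and -1.42 from day 16 to day 28, close to those of the family, and all 4 were lower in PA cells at day 45 (median -0.79). The 18 genes with the pyrimidine tract at the annotated start gave medians of -1.03 in IVF and -1.41 in PA cells from day 16 to day 28, beside -1.02 and -1.45 for the 60 tested genes without it.

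RPS27L, a copy of RPS27 that p53 induces in human cells, had a pattern of its own. In IVF cells it was 39.7 and 46.5 CPM at day 0, 59.0 and 50.8 CPM at day 16, 30.0 and 25.6 CPM at day 28 and 46.2 and 33.2 CPM at day 45. In PA cells it was 49.9 and 50.5 CPM, 64.1 and 79.4 CPM, 14.1 and 12.0 CPM and 26.9 and 26.4 CPM. It rose to day 16 in PA cells (0.52 ± 0.16, adjusted p = 0.013), a call lost without PA day 16 replicate 2 (0.35) or either PA day 0 library (0.51 and 0.52). It then had the steepest fall of the family in PA cells (-2.45 ± 0.17, adjusted p = 3.2e-08) and rose again to day 45 (1.03 ± 0.17, adjusted p = 0.00020). At day 28 it was lower in PA than in IVF cells by -1.09 ± 0.17 (adjusted p = 0.00015), with both PA libraries below both IVF libraries. RPS27 itself was 228 and 224 CPM in PA and 239 and 226 CPM in IVF cells at day 28. In TPM RPS27L stood at 2.77% to 8.04% of RPS27, lowest in the PA day 28 libraries (3.19% and 2.77%). Of 12 listed p53 target genes, 8 fell and 0 rose in PA cells from day 16 to day 28 (median -1.64), beside 30.9% and 29.5% of all genes, and 8 rose and 0 fell from day 28 to day 45 (median 0.93), beside 23.0% and 21.0%. In IVF cells 8 fell and 1 rose (median -0.95), beside 24.1% and 22.9%, then 5 rose and 0 fell (median 0.34), beside 21.1% and 20.9%. PHLDA3, an inhibitor of AKT, fell by 2.60 and 1.35 on the log2 scale in PA and IVF cells in the earlier step. CDKN1A, the cell cycle inhibitor p21, rose by 3.03 ± 0.26 in PA and 2.07 ± 0.25 in IVF cells in the later one. From day 0 to day 16 the list was mixed. In PA cells 5 rose and 3 fell (median 0.15), beside 30.3% and 29.3% of all genes. In IVF cells 5 rose and 4 fell (median 0.07), beside 31.2% and 30.1%. The part of p53 in the course of RPS27L was not tested.

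RPL22 and its copy RPL22L1, which lies outside the naming rule, moved apart between the lines by day 16. In mice RPL22 holds down Rpl22l1. RPL22 was 559.6 and 534 CPM at day 0 and 306 and 314 CPM at day 16 in IVF cells, and 614 and 627 CPM and then 489.9 and 526 CPM in PA cells. It fell by 0.82 ± 0.11 (adjusted p = 2.2e-05) and by 0.29 ± 0.11 (adjusted p = 0.038) on the log2 scale, a difference of 0.53 ± 0.16 (adjusted p = 0.048). RPL22L1 went from 29.4 and 32.8 CPM to 62.0 and 75.6 CPM in IVF cells, a rise of 1.15 ± 0.13 (adjusted p = 3.9e-06), and from 42.4 and 50.3 CPM to 31.3 and 32.8 CPM in PA cells, a fall (-0.53 ± 0.13, adjusted p = 0.0029). The difference between the lines was -1.68 ± 0.19 (adjusted p = 6.3e-05). The RPL22 difference was lost in 15 alternative settings, which included leaving out any library of days 0, 16 or 28, with values from 0.48 to 0.58. From day 16 to day 28 both genes fell in both lines.

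The other copies were near the floor. RPL3L, the form of RPL3 made in striated muscle, had 621 counts over the 16 libraries and passed no test of the 6 steps, and it overlaps NDUFB10 on the opposite strand, which had 35669 counts. FAU, which encodes RPS30 fused to a ubiquitin-like protein and so lies outside the rule, fell with the family from day 16 to day 28, by 0.69 ± 0.12 in IVF and 1.21 ± 0.13 in PA cells. From day 28 to day 45 it rose by 0.73 ± 0.12 in IVF cells and gave 0.11 ± 0.12 in PA cells, which did not pass the test.

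Other lists of the translation machinery varied: some medians lay close to those of the ribosomal proteins and some did not. Their counts stand beside the same shares of all genes as above: from day 0 to day 16, 30.1% fell and 31.2% rose in IVF and 29.3% and 30.3% in PA cells, from day 16 to day 28, 24.1% and 22.9% in IVF and 30.9% and 29.5% in PA cells, and from day 28 to day 45, 20.9% and 21.1% in IVF and 21.0% and 23.0% in PA cells. Of 39 ribosome biogenesis factors, which assemble the subunits in the nucleolus, 37 fell and 0 rose from day 0 to day 16 in IVF cells (median -1.10), and 36 fell and 1 rose in PA cells (median -0.94). The ribosomal protein medians over that step were -0.27 and -0.17. Fibrillarin (FBL), the methyltransferase of ribosomal RNA, fell from 226 and 214 CPM to 60.6 and 64.7 CPM in IVF cells (-1.81 ± 0.13) and from 275 and 291 CPM to 83.6 and 86.3 CPM in PA cells (-1.74 ± 0.12). From day 16 to day 28, when nearly all ribosomal protein genes fell, the biogenesis list gave medians of -0.15 and -0.43, with 9 fallen and 3 risen in IVF and 20 fallen and 2 risen in PA cells. NPM1 (nucleophosmin) was among the genes that fell, by 1.20 and 2.03 on the log2 scale. At day 45 the order of the lines was opposite for the lists: 18 biogenesis factors were higher and 2 lower in PA than in IVF cells (median 0.45), beside 20.2% and 18.7% of all genes, while 70 ribosomal protein genes were lower. All 4 markers of dividing cells were higher in PA cells in that comparison (median 1.35), at 118 and 335 CPM in the PA libraries and 90.9 and 91.6 CPM in the IVF libraries, and their part in either difference was not tested.

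RNA polymerase I and its factors, which transcribe the ribosomal RNA, fell from day 0 to day 16 for 9 and 10 of 12 genes, with none rising. In the next step, to day 28, 4 of the 12 fell and 1 rose in IVF (median -0.16) and 6 fell and 1 rose in PA cells (median -0.37). The gene that rose was the nucleolar factor UBTF, which fell by 1.08 ± 0.10 in IVF and 1.46 ± 0.10 in PA cells from day 0 to day 16 and rose from day 16 to day 28 by 1.14 ± 0.10 and 2.05 ± 0.10. The mitochondrial ribosomal proteins, which build a separate ribosome, were lower at day 16 for 52 and 53 of 74 genes (medians -0.53 and -0.52). From day 16 to day 28, 25 fell and 6 rose in IVF (median -0.13) and 53 fell and 2 rose in PA cells (median -0.64).

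Factors that act on the ribosome also fell from day 16 to day 28. Of 10 ribosome-bound and nascent chain factors, 7 fell in IVF and 8 in PA cells and 0 rose (medians -0.94 and -1.12). BTF3, a subunit of the nascent polypeptide-associated complex, fell by 1.07 ± 0.08 and 1.39 ± 0.08. Of 11 elongation factors 8 fell and 1 rose in each line (medians -0.73 and -0.80). EEF1B2, the exchange factor of the tRNA carrier eEF1A, fell by 1.42 ± 0.08 and 1.71 ± 0.08, while EEF1A2, the form of eEF1A made in neurons and muscle, rose by 1.10 ± 0.11 and 2.39 ± 0.12. Of 29 initiation factors and their partners 18 and 24 fell and 1 rose in each line (medians -0.49 and -0.79), with the poly-A binding protein PABPC1 falling by 1.31 ± 0.09 and 1.60 ± 0.09.

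**Figure D5:**
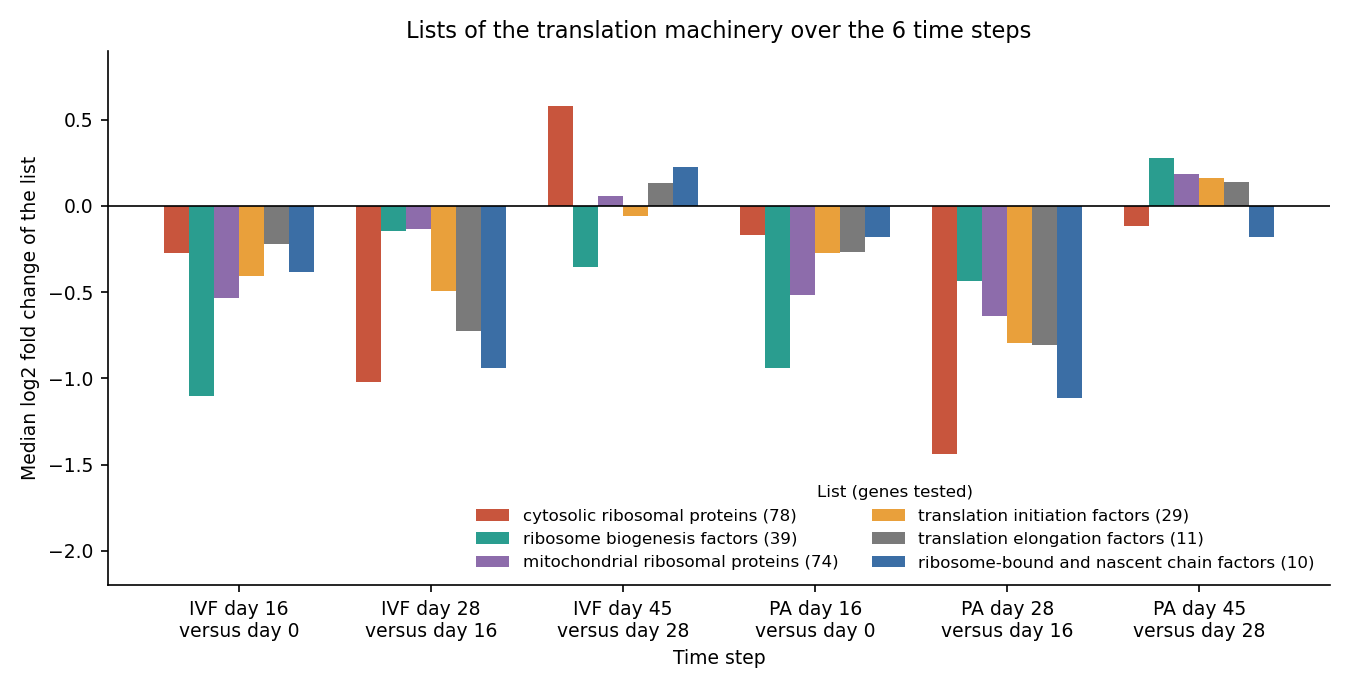
Median log2 fold change of 6 lists of the translation machinery in the 6 time steps, as bars from 0; the number of genes tested in each list stands in the key. Ribosome biogenesis factors lead the fall from day 0 to day 16 (-1.10 and -0.94), ribosomal proteins lead it from day 16 to day 28 (-1.02 and -1.44), and from day 28 to day 45 the IVF bar of the ribosomal proteins (0.58) is the highest.

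Upstream regulators were read from the same tables. Of 16 growth regulators of translation, 6 rose and 6 fell in IVF cells from day 16 to day 28 (median 0.05), beside 22.9% and 24.1% of all genes. In PA cells 8 rose and 6 fell (median 0.11), beside 29.5% and 30.9%. Both genes named next are among those that fell, and those that rose are not named. MYCN, a transcription factor that drives growth of neural precursors, fell by 2.34 ± 0.14 in IVF and 1.14 ± 0.13 in PA cells. EIF4EBP1, a repressor of cap-dependent translation that mTOR inactivates, fell by 2.08 ± 0.23 and 2.04 ± 0.23. Of 10 genes of the response to amino acid shortage, 7 and 5 fell and 1 rose in each line over the same step, beside the same shares of all genes. The serine and asparagine synthesis genes PSAT1 (-3.98 ± 0.19 and -4.63 ± 0.19), PHGDH (-3.66 ± 0.18 and -3.87 ± 0.18) and ASNS (-3.16 ± 0.13 and -3.69 ± 0.13) fell in IVF and PA cells. From day 28 to day 45, 7 genes of this list rose and 0 fell in PA cells (median 0.88), beside 23.0% and 21.0% of all genes. In IVF cells 2 fell and 0 rose (median -0.14), beside 20.9% and 21.1%.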

How the data were processed

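RNA from 16 samples of pig cells was poly-A selected (TruSeq Stranded mRNA) and sequenced on a NovaSeq. According to the submitters' processing notes and the study's methods, the authors trimmed reads with Trimmomatic 0.38, aligned them to Sscrofa11.1 with HISAT2 2.1.0 and SAMtools 1.9, and estimated transcripts with StringTie 2.1.3b; the strand setting of the counting is not given in the sources used here. The deposited table holds counts per gene, the unit of all tests, and TPM and FPKM computed by the authors. TPM served for levels between genes and 1 alternative, and FPKM was not used. Columns with the authors' own comparisons (fold changes and p-values) were not used. Depth was 39247693 to 52165867 counts per library.

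Genes were filtered with filterByExpr (18528 kept), scaled by TMM and fitted with 1 mean per group over all 16 libraries in edgeR 4.0.16 (glmQLFit and glmQLFTest, 8 residual degrees of freedom, R 4.3.3), with Benjamini-Hochberg adjustment over all tested genes; a call is an adjusted p below 0.05, with no fold minimum. Standard errors were derived from the log2 change and its F statistic. The second fit used the summed ribosomal protein counts as library size. The TMM-scaled fit was tested on simulated data in 1 comparison, and the second fit was not. Gene positions and start windows came from the RefSeq annotation of the same build, with 28208 of 28232 rows matched.

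The genes named were, per comparison, up to 4 called members with the largest rise or fall, up to 3 each way farthest from the members' median, the copies and their parents, the 3 highest and 3 lowest by TPM, the X-linked and stalk genes, FAU, and up to 3 called genes per other list with the smallest adjusted p; other names complete short counts and were chosen after their values were seen. Some genes that this rule takes are not reported here, though counts and medians include them. The members and the lists were chosen with earlier results of these data known. Alternatives were RLE, upper quartile and total count scaling, TMM without members and mitochondrial genes, other filters, a replicate block, a fit of the compared libraries alone, a 2-fold minimum, DESeq2 1.42.0 and leaving out each library.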

Additional observations from a re-analysis of the deposited data

Results flagged for a closer look

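The changes below differed between PA and IVF cells by the interaction term of the edgeR fit (PA change minus IVF change, log2 scale, adjusted p below 0.05 over all tested genes).

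From day 0 to day 16, 1 ribosomal protein gene differed, RPL22 (0.53). From day 16 to day 28, 17 genes differed, among them RPS27L (-1.47), RPSA (-0.75), RPL3 (-0.67) and RPS18 (-0.66), each with the larger fall in PA cells.

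From day 28 to day 45, 63 genes differed, all lower in PA cells. The named ones were RPL34 (-1.15), RPL13 (-1.09), RPL24 (-1.07), RPL36A (-0.93), RPL39 (-0.86), RPL17 (-0.86), RPL10 (-0.66), RPS20 (-0.62), RPS27 (-0.57), RPS4X (-0.57) and RPLP1 (-0.55). The 4 X-linked genes were all in this set.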

How the results depend on the processing

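Counts of called members are given in the order IVF then PA steps, then PA against IVF by day, then differences of steps. RLE scaling gave 3 for PA against IVF at day 28 (2 higher, so the direction turned) and 9 for the day 16 to 28 difference. Upper quartile scaling gave 9 for PA day 45 against 28 and 0 for the day 0 to 16 difference, as did TMM without members and mitochondrial genes (0). Total counts gave 22 for IVF day 16 against 0 and 2 for the lines at day 28. No filter gave 37 and 3 for the lines at days 0 and 28, DESeq2 34 and 3, and a minimum of 10 counts in every library 2 at day 28. At day 28 no filter and DESeq2 also turned the direction. The compared libraries alone gave 55 and 40 for IVF and PA day 16, 2 for PA day 45, 73, 12 (direction turned) and 25 for the lines at days 0, 28 and 45, and 4, 63 and 27 for the differences. A 2-fold minimum gave 0 for IVF day 16, 46 for IVF day 28, 0 for IVF day 45, 0 for PA day 16, 1 for PA day 45 (direction turned), 0, 0 and 1 for the lines at days 0, 16 and 45, and 0, 1 and 5 for the differences. The causes were not tested.

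Leaving out 1 library gave 16 to 44, 75 to 77 and 34 to 74 in the IVF steps, 10 to 35, 76 to 77 and 5 to 44 in the PA steps, 0 to 54, 11 to 72, 1 to 7 and 52 to 77 for the lines, and 0 to 1, 4 to 53 and 37 to 73 for the differences. Without PA day 45 replicate 2 the PA day 45 calls turned to 10 risen and 4 fallen (14), and without either PA day 45 library the lines at day 28 gave 7 (4 higher). The day 0 to 16 difference was 0 without any library of days 0, 16 or 28.

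The summed level moved to -0.19 (total counts), -0.051 (TPM) and -0.20 (total without mitochondrial genes) for IVF day 16, and to -0.084, 0.013 and -0.081 for PA day 16. It moved in TPM to -0.81 and 0.29 for IVF days 28 and 45, to -1.02 for PA day 28 and to 0.18 and 0.24 for the lines at days 0 and 16. PA day 28 gave -1.33 with RLE, -1.33 with total counts and -1.36 without mitochondrial genes, and day 16 between the lines gave 0.38 with total counts. Leaving out 1 library moved PA day 45 against 28 between -0.33 and 0.045. Of 6058 values of named genes 5608 kept their side of the threshold, 296 lost and 154 gained a call, and 0 turned.

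Replicate numbers are shared across groups but the labels pair no samples. A replicate block gave 35, 76, 69, 28, 77, 17, 29, 59, 1, 71, 1, 20 and 64 calls over the 13 comparisons, each within 1.5 times the count without it.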
